A study of Mus musculus with 9 samples.

Results

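The transcripts described here were the antisense genes with measurable expression in the juvenile mouse ovary. They were the genes that the deposited tables class as antisense and whose mean over the 9 libraries was above 2 FPKM (mapped fragments scaled to exon length and to library size), leaving out the imprinted transcripts Airn, Kcnq1ot1, Meg3, Rian, Mirg and H19. This rule gave 108 of the 52025 genes in the tables, and 108 of the 2480 genes classed as antisense, of which 1975 were above 0 in at least 1 library. The transcripts were thus chosen by their mean FPKM over all libraries, and the levels given below are a description. The libraries were prepared from untreated ovaries of Kunming mice collected on postnatal day (PD) 14, PD15 and PD16, with 3 libraries for each day. The study chose these days to follow the initial formation of the follicular antrum, the fluid-filled cavity of the growing follicle. The labels name ovary as the tissue and granulosa cells as the source, whereas the study's methods describe ovaries. The study describes the 3 replicates of a day as independent ovaries, without saying whether each ovary came from a different animal, so the p-values measure the spread between these ovaries.

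An antisense transcript is a long non-coding RNA whose gene lies on the opposite strand of another gene, usually a protein-coding one. Some such transcripts begin near the promoter of the opposite gene and run away from it, others lie inside its introns or cross its exons. Antisense transcripts can act on the gene opposite to them, for example through chromatin or by pairing with its RNA, but many have no known function. The library kit used here does not mark the strand of a fragment. Reads from a transcript and from its partner on the opposite strand therefore cannot be told apart where their exons overlap, and the partner's values are given beside each transcript. The same holds for any unspliced RNA of the partner where exons of the transcript lie in its introns. The share of such fragments was not measured.

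Depth ran from 20.4 to 28.7 M mapped fragments per library, as derived from the FPKM step of a single fragment. Markers of oocytes were present in every library, with summed FPKM between 1487 and 2185, and so were markers of theca and interstitial cells, between 1196 and 2245, beside those of granulosa cells, between 3165 and 4062. The libraries thus held more than granulosa cells, and a lower FPKM may stand for fewer cells of a type or for less RNA per cell, which cannot be told apart in bulk samples. The lowest number of fragments behind a transcript in a single library was 10, the median 75 and the highest 2069. The median SD between libraries of the same day was 0.19 on the log2 scale for the 108 transcripts, against 0.10 for the 9944 tested genes with a mean FPKM of the same range.

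Of the 108 transcripts, 107 were found in GENCODE M21, the annotation on mm10 used here, and 103 of these carry the class antisense there. They lay on 18 chromosomes. Their exons covered a median of 835 bases, from 269 to 7928. An opposite-strand partner was found for 103, namely the gene whose span overlapped most or, without overlap, the nearest start within 5000 bases. Exons of the transcript and of the partner overlapped in 63 pairs. In 33 pairs the spans overlapped without shared exon bases, and in 7 pairs the genes did not overlap but started within 5000 bases of each other. The partner was protein coding in 101 cases. In 41 transcripts no exon base lay in any exon of the opposite strand, and in 26 at least 20% of the exon bases did. In 5 of them, Gm17201, Gm20457, Gm13563, Gm12264 and 9130221H12Rik, at least 50% did.

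Levels were low for most of the transcripts. The median of the mean FPKM was 3.29, 30 transcripts were above 5 and 7 above 10. The transcripts just inside the threshold were Gm15650 at 2.0, Gm13091 at 2.01 and Hnf4aos at 2.04. Just outside were Gm11837 and 3010003L21Rik, both at 1.97, and 1700052K11Rik at 1.94. In 34 of 103 pairs the antisense transcript had a higher mean FPKM than its partner, and in 20 pairs the partner was below 1.

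**Figure D1:**
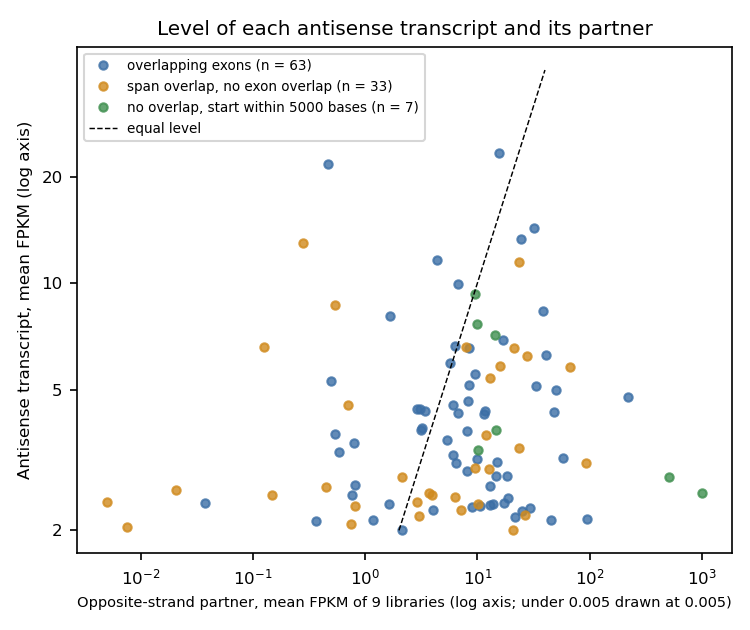
Mean FPKM over the 9 libraries of each antisense transcript (vertical, log axis) against that of its opposite-strand partner (horizontal, log axis), with 1 point per pair coloured by how the 2 genes overlap. The 34 points above the dashed line are transcripts with a higher level than their partner, and the partners spread from near 0 to above 1000 FPKM while the transcripts stay between 2.0 and 23.3.

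Gm17201, opposite Ankrd52, a subunit of a protein phosphatase, had the highest mean at 23.3 FPKM. It was read at 21.8, 28.2 and 19 FPKM in the PD14 libraries, 27.5, 21.3 and 21.2 at PD15, and 21.1, 23.7 and 25.9 at PD16. The 3 days overlapped. In this transcript 59.5% of the exon bases lie in exons of the opposite strand, where Ankrd52 itself had a mean of 15.6 FPKM. A530040E14Rik followed at 21.7 FPKM and is described with the changes between days. 4930579G18Rik had 14.3 FPKM and lies opposite Acin1, an RNA-binding protein of splicing and apoptosis, which had 32.1. Gm42817 had 13.0 FPKM opposite Tmem132d at 0.278, with no exon bases shared. Gm16185 had 11.5 FPKM and lies opposite Slc25a36, a mitochondrial nucleotide carrier, at 23.3. Gm29237 had 8.32 FPKM opposite Sptbn1, a spectrin of the membrane skeleton, at 38.5. Gt(ROSA)26Sor, the transcript of the Rosa26 locus that is widely used to express transgenes, had 9.92 FPKM, and its lowest and highest libraries were 8.95 and 10.8. Of these, Gm17201, 4930579G18Rik, Gm42817, Gm16185, Gm29237 and Gt(ROSA)26Sor did not pass the test between any days.

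Gm12473 was the fourth highest, with a mean of 13.4 FPKM, and lies opposite Npr2, the receptor of C-type natriuretic peptide, through which follicle cells keep the oocyte in meiotic arrest. Its level was 10.6, 16.1 and 8.14 FPKM at PD14, 16.1, 11.5 and 12.3 at PD15, and 14.9, 15.6 and 15.0 at PD16. The PD14 libraries spread over the whole range and the PD16 libraries lay close together. The log2 change was 0.41 ± 0.20 (SE) for PD16 against PD14 (adjusted p = 0.256, limma). Npr2 itself was read at 22.8, 24.2 and 19 FPKM at PD14, 27.4, 19.3 and 21.6 at PD15, and 29.5, 26.6 and 29.6 at PD16. Its change for PD16 against PD14 was 0.37 ± 0.13 on the log2 scale (adjusted p = 0.127). The first exon of Gm12473, of 266 bases at chr4:43641268-43641533 (mm10, minus strand), lies inside annotated exons of Npr2 over its whole length, and 63 of its bases are coding in Npr2 on the other strand. Its sequence is shown because fragments from it cannot be assigned to either gene. It is read 5′ to 3′ on the strand of Gm12473 with the bases that are coding in Npr2 in capitals.
Gm12473 first exon: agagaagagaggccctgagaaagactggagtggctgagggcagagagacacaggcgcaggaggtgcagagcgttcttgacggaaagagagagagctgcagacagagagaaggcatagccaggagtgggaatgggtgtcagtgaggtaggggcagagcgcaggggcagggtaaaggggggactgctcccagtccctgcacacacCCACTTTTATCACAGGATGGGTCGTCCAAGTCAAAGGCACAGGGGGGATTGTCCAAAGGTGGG
The log2 change of the ratio of Gm12473 to Npr2 was 0.04 ± 0.14 for PD16 against PD14 (adjusted p = 0.906).

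Of the 108 transcripts, 14 are named as the opposite strand of a gene. Brip1os, named for the DNA repair helicase Brip1, was the highest of these with a mean of 11.6 FPKM, from 10.3 to 13.6 over the 9 libraries. Brip1 had 2.95 FPKM, and the largest overlap on the other strand was with Ints2 at 4.37. Phf2os1, which shares 8 exon bases with the histone demethylase gene Phf2, had 6.88 FPKM against 16.8 for Phf2. Sp3os had 6.60 FPKM against 32.8 for Sp3, a transcription factor of GC-rich promoters. Tmem147os had 4.39 FPKM against 58.6 for Tmem147. Rab26os was higher than its namesake, with 6.60 FPKM against 0.126 for the small GTPase gene Rab26, and the small nucleolar RNA gene Snord60 overlaps it on the same strand. Hnf4aos had 2.04 FPKM while Hnf4a, a transcription factor of liver and gut, was at 0.0075. Among the lower ones, Wt1os had 3.52 FPKM against 26.7 for Wt1, a transcription factor of gonad development. Arhgap20os was the only one of the 14 to pass a test between days.

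Dnm3os, opposite Dnm3, is the primary transcript of miR-199a-2 and miR-214, microRNAs that are common in mesenchymal cells. The libraries gave 8.0, 9.40 and 7.29 FPKM at PD14, 10.2, 9.09 and 8.75 at PD15, and 7.85, 8.07 and 9.52 at PD16, and the days overlapped. Dnm3 had a mean of 0.540 FPKM and shares no exon base with it. The log2 change of Dnm3os was 0.17 ± 0.10 for PD15 against PD14 (adjusted p = 0.467) and 0.04 ± 0.10 for PD16 against PD14 (adjusted p = 0.847). The mature microRNAs, from RefSeq (GRCm38.p6), are shown because their sequences are part of the measured transcript. Bases 2 to 8, the seed that pairs with target mRNAs, are in capitals.
mmu-miR-199a-5p: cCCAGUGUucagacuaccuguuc
mmu-miR-199a-3p: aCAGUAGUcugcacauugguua
mmu-miR-214-5p: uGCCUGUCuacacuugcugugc
mmu-miR-214-3p: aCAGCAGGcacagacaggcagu
The 4 seeds differ from each other. The libraries measured long RNA, so the level of the mature microRNAs is not given by these data.

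The changes between days were small for most of the transcripts. Differences were tested on log2(FPKM + 1) with limma over 15495 genes, and a gene was called when its Benjamini-Hochberg adjusted p was under 0.05. Between PD14 and PD15, 1 of the 108 transcripts was called, where 0.678% of all genes tested were called. It fell, where 0.342% of all genes did, and none rose, where 0.336% did. Between PD14 and PD16, 6 were called, which is 5.56% of the transcripts, where 4.25% of all genes tested were called. Of these, 2 rose, where 2.36% of all genes did, and 4 fell, where 1.89% did. In 2 of these 4, Gm13091 and Gm14097, the PD16 mean was under the threshold of 2 that the mean over all days had to pass. The 4 falls and the 6 calls that hold them are thus not counts independent of the rule. Neither count is read against the share of all genes. Between PD15 and PD16, 3 were called, where 0.729% of all genes were called. Of these, 2 rose, where 0.432% of all genes did, and 1 fell, where 0.297% did. Unadjusted p-values under 0.05 were found for 15, 17 and 20 transcripts in the 3 comparisons, where this held for 14.7%, 22.8% and 14.1% of all genes tested. The F test over the 3 days called 6, where it called 3.03% of all genes. Gm14097 is among these 6, so this count is not read against that share either. Among the 156 other antisense genes tested, which the rule did not take, the corresponding numbers were 1, 5, 0 and 2. In the 3 comparisons, 23, 32 and 18 of these 156 had an unadjusted p under 0.05. These are 14.7%, 20.5% and 11.5%, against 13.9%, 15.7% and 18.5% of the 108 transcripts. The unadjusted counts for PD16 against PD14 and PD15 hold Gm14097 too and are not read against these shares. When any 1 library was left out, 1 to 4 of the 108 transcripts were called for PD16 against PD14.

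The median log2 change of the 108 transcripts was -0.02 for PD15 against PD14, -0.06 for PD16 against PD14 and -0.02 for PD16 against PD15, against 0.01 for all genes tested in each of the 3. The log2 change was above 0 in 51, 39 and 48 of the 108, respectively, and in 51.9%, 52.2% and 53.1% of all genes tested. For PD16 against PD14, 100 of the 108 had a change under 0.5 in either direction, and the median SE of a change was 0.14 against 0.09 for all genes tested. The 3 libraries of PD16 did not overlap with those of PD14 in 15 transcripts, where this held for 28.5% of all genes tested. They were higher at PD16 in 5, where 15% of all genes were, and lower in 10, where 13.5% were. For PD15 against PD14 the libraries did not overlap in 18, where 20.6% of all genes did not. They were higher at PD15 in 8, where 10.4% of all genes were, and lower in 10, where 10.2% were. For PD16 against PD15 they did not overlap in 23, where 19.6% of all genes did not. They were higher at PD16 in 7, where 9.85% of all genes were, and lower in 16, where 9.73% were.

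**Figure D2:**
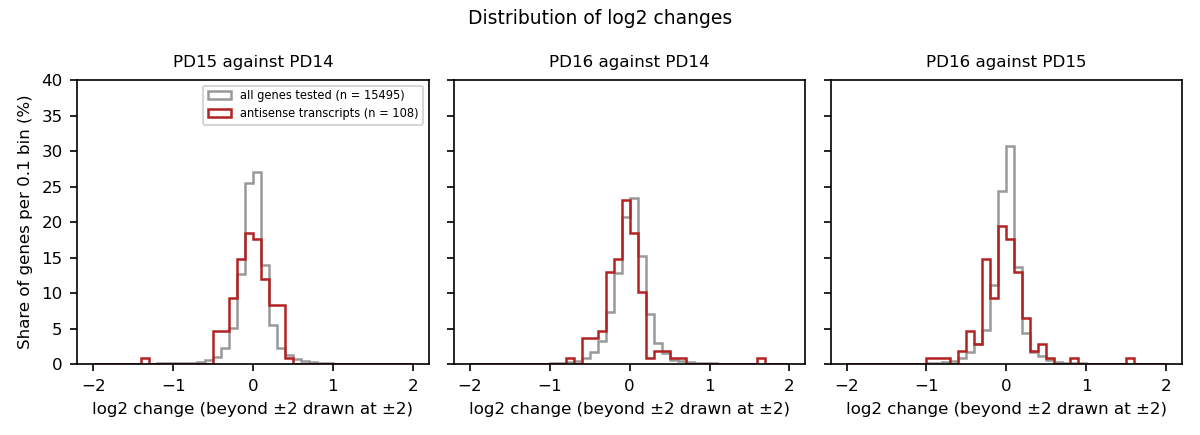
Distribution of the log2 change in FPKM + 1 for each pair of days, as the share of genes in bins of 0.1, for the 108 antisense transcripts (red) and all 15495 genes tested (grey). Both distributions centre near 0, and a single transcript, Gm45260, stands at 1.68 for PD16 against PD14.

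The summed FPKM of the 108 transcripts was 503, 541 and 493 in the PD14 libraries, 516, 491 and 470 at PD15, and 461, 486 and 527 at PD16. The days overlapped, with means of 512 ± 25.1 (SD, n = 3), 492 ± 23.2 and 492 ± 33.5 FPKM. The sum was 0.136% to 0.175% of the FPKM of a library. The 2 libraries with the lowest sums, PD16 replicate 1 and PD15 replicate 3, had the highest FPKM totals over all genes, 338237 and 342803. The 2 with the highest sums, PD14 replicate 2 and PD16 replicate 3, had the lowest totals, 308363 and 310188. The part of this in the changes between days was not tested.

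**Figure D3:**
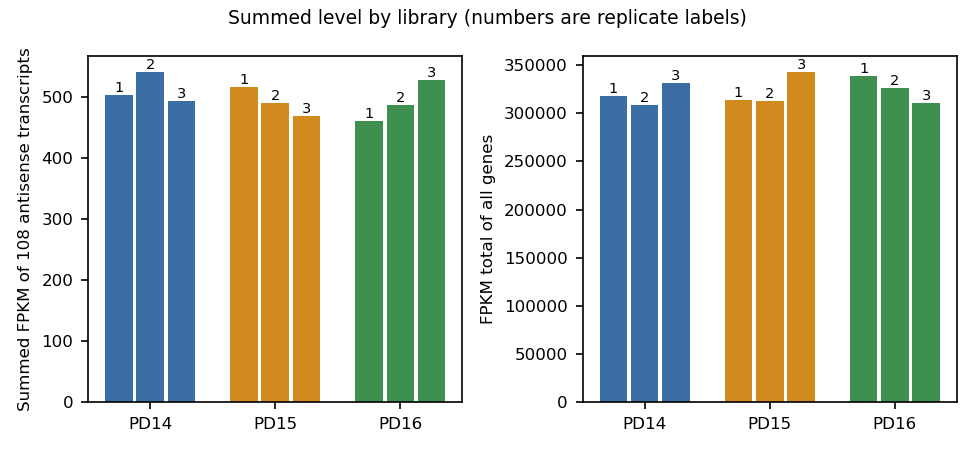
Summed FPKM of the 108 antisense transcripts (left) and FPKM total of all genes (right) in each library, with bars numbered by replicate. The sums run from 461 to 541 without a separation of the days, and the libraries with the lowest sums have the highest totals.

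Gm45260 showed the largest change. This transcript (ENSMUSG00000110373, named Gm42303 in GENCODE M21, chr4:76451231-76490113, plus strand) lies inside the span of Ptprd, a receptor-type tyrosine phosphatase, on the opposite strand, and none of its exon bases lies in an opposite exon. All of them lie in that span, where unspliced Ptprd RNA would not be told apart from Gm45260. Per library, Gm45260 had 1.88, 3.54 and 3.44 FPKM in the PD14 libraries, 2.82, 3.02 and 3.60 at PD15, and 11.3, 11.1 and 11.8 at PD16. All PD16 libraries were above all libraries of the other days, while PD14 and PD15 overlapped. It rose with a log2 change of 1.68 ± 0.16 for PD16 against PD14 (adjusted p = 0.00419) and 1.58 ± 0.16 for PD16 against PD15 (adjusted p = 0.00509), and it did not pass between PD14 and PD15 (0.09 ± 0.16, adjusted p = 0.826). It was also called when any of the 9 libraries was left out, where the adjusted p for PD16 against PD14 was 0.00141 to 0.0185. Ptprd was read at 14.3, 15.0 and 14.6 FPKM at PD14, 14.1, 13.4 and 16.1 at PD15, and 15.9, 16.6 and 22 at PD16, and its log2 change of 0.28 ± 0.11 for PD16 against PD14 did not pass (adjusted p = 0.180). The ratio of Gm45260 to Ptprd rose by 1.40 ± 0.16 for PD16 against PD14 (adjusted p = 0.00863), a test of the difference between the genes, and by 1.29 ± 0.16 for PD16 against PD15 (adjusted p = 0.0172). The latter was lost without PD15 replicate 1, 2 or 3 or PD16 replicate 1 or 2. The first 200 of the 1170 bases of its GENCODE transcript are shown, 5′ to 3′, to identify the RNA.
Gm45260 transcript, bases 1 to 200: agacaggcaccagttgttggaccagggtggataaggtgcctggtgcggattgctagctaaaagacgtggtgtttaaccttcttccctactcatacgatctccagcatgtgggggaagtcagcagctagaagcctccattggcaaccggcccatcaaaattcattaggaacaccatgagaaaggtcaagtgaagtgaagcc

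RP23-243B24.4 (named Gm48882 in GENCODE M21, chr10:95318247-95324358, plus strand) was the second transcript that rose at PD16. It lies opposite Cradd, an adaptor protein of apoptosis, with 14.1% of its exon bases in opposite exons. Its FPKM was 3.44, 4.39 and 3.72 at PD14, 3.31, 3.42 and 3.79 at PD15, and 6.72, 5.76 and 4.99 at PD16. The PD16 libraries were above all others. The log2 change was 0.49 ± 0.11 for PD16 against PD14 (adjusted p = 0.0375) and 0.59 ± 0.11 for PD16 against PD15 (adjusted p = 0.0462). Cradd had a log2 change of -0.15 for PD16 against PD14 (adjusted p = 0.420), and the ratio to Cradd changed by 0.64 ± 0.15 without passing (adjusted p = 0.0635). Each call held in 3 of the 9 fits that left out a library. For PD16 against PD14 it was lost without PD14 replicate 1 or 3, PD15 replicate 1 or 2, or PD16 replicate 1 or 2. For PD16 against PD15 it was lost without PD14 replicate 3, any PD15 replicate, or PD16 replicate 1 or 2. All 5 smooth muscle markers had a log2 change above 0 for PD16 against PD14 and against PD15. Their sum was 304 to 405 FPKM at PD16, 278 to 316 at PD14 and 266 to 347 at PD15. Of these, Cnn1 was called for PD16 against PD14 (0.61), kept in 3 of the 9 fits that left out a library. Lyz2 was called too (0.74, kept in 4), while 2 of the 8 tested blood and immune markers were above 0. The part of these cells in the 2 rises was not tested.

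Gm15122, opposite Dazap1, an RNA-binding protein, narrowly missed the threshold for PD16 against PD14. It was read at 4.42, 6.18 and 3.40 FPKM at PD14, 5.78, 6.64 and 6.03 at PD15, and 6.63, 8.30 and 8.93 at PD16. The PD16 libraries were above those of PD14, and the change was 0.68 ± 0.16 on the log2 scale (adjusted p = 0.0507). The other large positive values that did not pass were Gm13070 at 0.56 (adjusted p = 0.155), Gm12473 at 0.41 and Gm11832, opposite the DNA repair gene Rad54b, at 0.35 (adjusted p = 0.245).

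A530040E14Rik was the only transcript called between PD14 and PD15. It lies at chr1:85105946-85114035 (mm10, plus strand), opposite C130026I21Rik, which had a mean of 0.463 FPKM. The day means of C130026I21Rik, which was too low to be tested, were 0.611, 0.295 and 0.484 FPKM at PD14, PD15 and PD16. The level of A530040E14Rik was 36.3, 24.2 and 34.4 FPKM at PD14, 10.6, 9.42 and 15.0 at PD15, and 19.5, 26.4 and 19.1 at PD16. The PD15 libraries were below all libraries of the other days, and PD14 and PD16 overlapped. It fell with a log2 change of -1.37 ± 0.20 for PD15 against PD14 (adjusted p = 0.0310). The difference of 0.85 ± 0.20 for PD16 against PD15 did not pass (adjusted p = 0.0910), nor did that of -0.52 ± 0.20 for PD16 against PD14 (adjusted p = 0.157). A530032D15Rik, a tested gene that also overlaps it on the other strand, had -0.52 for PD15 against PD14 (adjusted p = 0.125, limma). The ratio of A530040E14Rik to A530032D15Rik changed by -0.85 ± 0.16 without passing (adjusted p = 0.179). The call of A530040E14Rik between PD14 and PD15 was lost without PD14 replicate 1 or 3 or PD15 replicate 1 or 2, where the adjusted p was at most 0.118. The summed FPKM of 10 blood and immune cell markers was also lowest at PD15, with 63.6 to 84.3 against 120 to 154 at PD14 and 82.1 to 134 at PD16. Of the 8 of these markers that were tested, 2 had a log2 change above 0 for PD15 against PD14, and 1 was called, Hba-a1, an alpha globin, which fell by 1.35 on the log2 scale (adjusted p = 0.0381). That call was kept only without PD16 replicate 2 or 3. None of the 10 markers had a mean under 0.1. Their part in the fall of A530040E14Rik was not tested.

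The counts of A530040E14Rik are uncertain, since parts of its sequence are repeated. A stretch of 372 bases was identical to one of Gm10552, another of the 108 transcripts, which lies on the same chromosome opposite Sp140. With that gene, 15 genes held at least 100 bases at 98% identity or more. Gm10552 was read at 6.84, 3.84 and 6.79 FPKM at PD14, 4.09, 4.30 and 5.04 at PD15, and 5.57, 6.13 and 4.84 at PD16. Its log2 change for PD15 against PD14 was -0.29 ± 0.17 (adjusted p = 0.480). Of the 108 transcripts, 4 others had such a copy elsewhere, namely Gm26737, RP23-392I13.15, Gm13563 and 4933431E20Rik. The first 120 bases of the shared stretch are shown because fragments from it fit both loci, followed by the promoter of A530040E14Rik (RefSeq, GRCm38, chr1:85105843-85106142, plus strand, 250 bases before to 50 after the start).
Stretch shared by A530040E14Rik and Gm10552: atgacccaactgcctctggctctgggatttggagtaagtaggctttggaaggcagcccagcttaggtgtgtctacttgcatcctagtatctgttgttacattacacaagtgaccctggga
A530040E14Rik promoter: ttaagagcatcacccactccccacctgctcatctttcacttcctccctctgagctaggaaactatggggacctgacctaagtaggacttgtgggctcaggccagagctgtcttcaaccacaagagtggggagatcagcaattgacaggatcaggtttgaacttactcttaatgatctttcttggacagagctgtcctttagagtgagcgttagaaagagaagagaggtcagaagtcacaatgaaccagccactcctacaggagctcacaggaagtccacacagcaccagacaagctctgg

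Falls between PD14 and PD16 were called for 4 transcripts. Arhgap20os (chr9:51832814-51875886, minus strand) lies opposite Arhgap20, a GTPase activating protein. The libraries gave 10.6, 8.08 and 8.75 FPKM at PD14, 7.27, 9.79 and 10.7 at PD15, and 6.39, 5.44 and 5.38 at PD16. The PD16 libraries were below all others. It fell with a log2 change of -0.59 ± 0.14 for PD16 against PD14 (adjusted p = 0.0466), and the change of -0.59 ± 0.14 for PD16 against PD15 did not pass (adjusted p = 0.0867). Arhgap20 had a mean of 1.66 FPKM and a log2 change of 0.00 (adjusted p = 0.983), and the ratio to it changed by -0.59 ± 0.14 without passing (adjusted p = 0.0648). Its RefSeq promoter (GRCm38, chr9:51875836-51876135, minus strand) is 1 of 2 among the transcripts with a TATAAA motif. It is shown with the matches to TATAAA and to CCAAT in capitals, the latter on the other strand.
Arhgap20os promoter: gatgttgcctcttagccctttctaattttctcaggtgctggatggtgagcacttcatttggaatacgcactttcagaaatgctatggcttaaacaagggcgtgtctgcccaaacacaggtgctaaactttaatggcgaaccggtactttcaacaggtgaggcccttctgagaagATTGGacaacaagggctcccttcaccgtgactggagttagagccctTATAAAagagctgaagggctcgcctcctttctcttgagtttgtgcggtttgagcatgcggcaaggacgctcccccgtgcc

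Gm12963 (chr4:130024256-130047774, minus strand) starts 66 bases from the start of Col16a1, which encodes a collagen chain, and runs away from it. Per library, it had 4.28, 5.5 and 5.02 FPKM at PD14, 3.36, 3.56 and 2.86 at PD15, and 3.12, 3.04 and 3.81 at PD16. All PD14 libraries were above those of the later days. It fell with a log2 change of -0.46 ± 0.11 for PD16 against PD14 (adjusted p = 0.0458), and the change of -0.48 ± 0.11 for PD15 against PD14 did not pass (adjusted p = 0.0871). Col16a1 had a log2 change of -0.16 for PD16 against PD14 (adjusted p = 0.157).

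Gm14097 (chr2:132694432-132698523, minus strand) was read at 2.95, 2.20 and 2.51 FPKM at PD14, 2.76, 2.77 and 3.18 at PD15, and 0.982, 1.5 and 1.76 at PD16. The PD16 libraries were below all others. It fell with a log2 change of -0.57 ± 0.13 for PD16 against PD14 (adjusted p = 0.0458) and had -0.71 ± 0.13 for PD16 against PD15 (adjusted p = 0.0511). Its fall differed from the change of its partner 1110034G24Rik, with a log2 change of the ratio of -0.56 ± 0.12 (adjusted p = 0.04), a call kept only without PD16 replicate 3 among the fits that left out a library. Each value of Gm14097 rested on 11 to 43 fragments. Its PD16 mean of 1.41 FPKM was under the threshold of 2, which its mean passed through the other days.

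Gm13091 (chr4:150566869-150568544, minus strand) lies in an intron of Rere, a nuclear corepressor, and was read at 2.61, 2.21 and 2.83 FPKM at PD14, 1.68, 1.70 and 2.0 at PD15, and 1.61, 1.60 and 1.84 at PD16. The PD14 libraries were above all others. Its log2 change was -0.40 ± 0.09 for PD16 against PD14 (adjusted p = 0.0494), on 17 to 30 fragments a library, while Rere had 0.05 (adjusted p = 0.796). With day means of 2.55, 1.79 and 1.68 FPKM, it was above the threshold of 2 only through PD14, the day from which it fell, so the rule and this fall are not independent. The larger negative values that did not pass were Gm15650 at -0.71 (adjusted p = 0.0870) and Gm20703 at -0.59 (adjusted p = 0.155), each with 10 fragments in its lowest library. Their PD16 means of 1.01 and 1.43 FPKM were under the threshold of 2, which they passed through PD14 and PD15.

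All 4 falls were lost in most fits that left out a library, with 2 of 9 keeping Arhgap20os, 2 of 9 Gm12963, 1 of 9 Gm14097 and 1 of 9 Gm13091. All 4 were lost without PD14 replicate 1, PD14 replicate 3, PD16 replicate 1, PD16 replicate 2 or PD15 replicate 2, and their adjusted p was at most 0.156. The sum of 8 surface and oviduct epithelial markers was lower at PD16 as well, with 51.3 to 57.1 FPKM against 68.5 to 78.1 at PD14, and 4 of its 5 tested genes fell, calls that were all lost without PD16 replicate 1. None of the 8 had a mean under 0.1. The sum of 6 endothelial markers was 58.9 to 61.5 FPKM at PD16 against 65.9 to 70.2 at PD14, with 0 of the 6 above 0 in log2 change and 1 called, Tie1, which fell, a call lost when any 1 library was left out. None of these had a mean under 0.1. The sum of 5 fat cell markers was 6.86 to 8.02 FPKM at PD14, 4.58 to 5.18 at PD15 and 4.24 to 6.03 at PD16. Of these, 1 was tested, Plin1, which fell for PD15 and for PD16 against PD14 (calls kept in 2 and 4 of the 9 fits that left out a library), while the defining markers Adipoq and Lep had means under 0.1. Of 13 granulosa cell markers, 5 had a log2 change above 0 for PD16 against PD14, with 1 called higher and 2 lower. Cyp19a1 (-0.84) and Kitl (-0.50) fell and Amh (0.47) rose, calls kept in 4, 1 and 6 of the 9 fits that left out a library. Their sum was 3336 to 4062 FPKM at PD14 and 3296 to 3877 at PD16, and these days overlapped. The part of these cell types in the falls was not tested.

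In 2 called transcripts all PD15 libraries were above all libraries of the other days. 2810001G20Rik (chr11:64079484-64083259, plus strand) starts 16 bases from the start of Cox10, an enzyme of heme A synthesis for cytochrome c oxidase, and runs away from it. It was read at 8.96, 9.01 and 8.41 FPKM at PD14, 11.4, 12.2 and 10.5 at PD15, and 6.87, 7.38 and 8.85 at PD16. It fell with a log2 change of -0.51 ± 0.09 for PD16 against PD15 (adjusted p = 0.0434) and had 0.33 ± 0.09 for PD15 against PD14 (adjusted p = 0.131). The fall was kept only without PD16 replicate 3 among the 9 fits that left out a library, with an adjusted p of at most 0.136. Cox10 was read at 9.65, 8.33 and 9.52 FPKM at PD14, 11.8, 10.8 and 10.1 at PD15, and 8.32, 8.95 and 9.11 at PD16, and its log2 change of -0.28 ± 0.08 for PD16 against PD15 did not pass (adjusted p = 0.142). Both genes of this pair thus had their highest library at PD15.

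Gm15691 was called by the F test alone (adjusted p = 0.0470). Its level was 2.11, 2.19 and 2.31 FPKM at PD14, 3.24, 3.12 and 3.36 at PD15, and 2.37, 1.71 and 2.22 at PD16. The PD15 libraries were above all others, with a log2 change of 0.40 ± 0.09 for PD15 against PD14 (adjusted p = 0.0907) and -0.46 ± 0.09 for PD16 against PD15 (adjusted p = 0.0631). The call was lost when any 1 of the 9 libraries was left out, with an adjusted p of up to 0.127. The sum of 16 oocyte markers was highest at PD15 too, with 2054 to 2185 FPKM against 1611 to 1994 at PD14 and 1487 to 1611 at PD16. None of the 16 had a mean under 0.1. For PD15 against PD14, 13 of the 16 had a log2 change above 0 and 1 was called, Nlrp5, which rose. For PD16 against PD15, 0 were above 0 and 2 were called, Nlrp5 and Zp2, which fell. These calls were kept in 3, 2 and 1 of the 9 fits that left out a library. Their part in the values of 2810001G20Rik and Gm15691 was not tested. Other large values between PD14 and PD15 did not pass, among them Gm13822 at 0.39 and A530020G20Rik, opposite Slc44a3, at -0.44 (adjusted p = 0.387 and 0.250). 1500015A07Rik, opposite Afap1l1, had -0.44 as well and was not called.

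**Figure D4:**
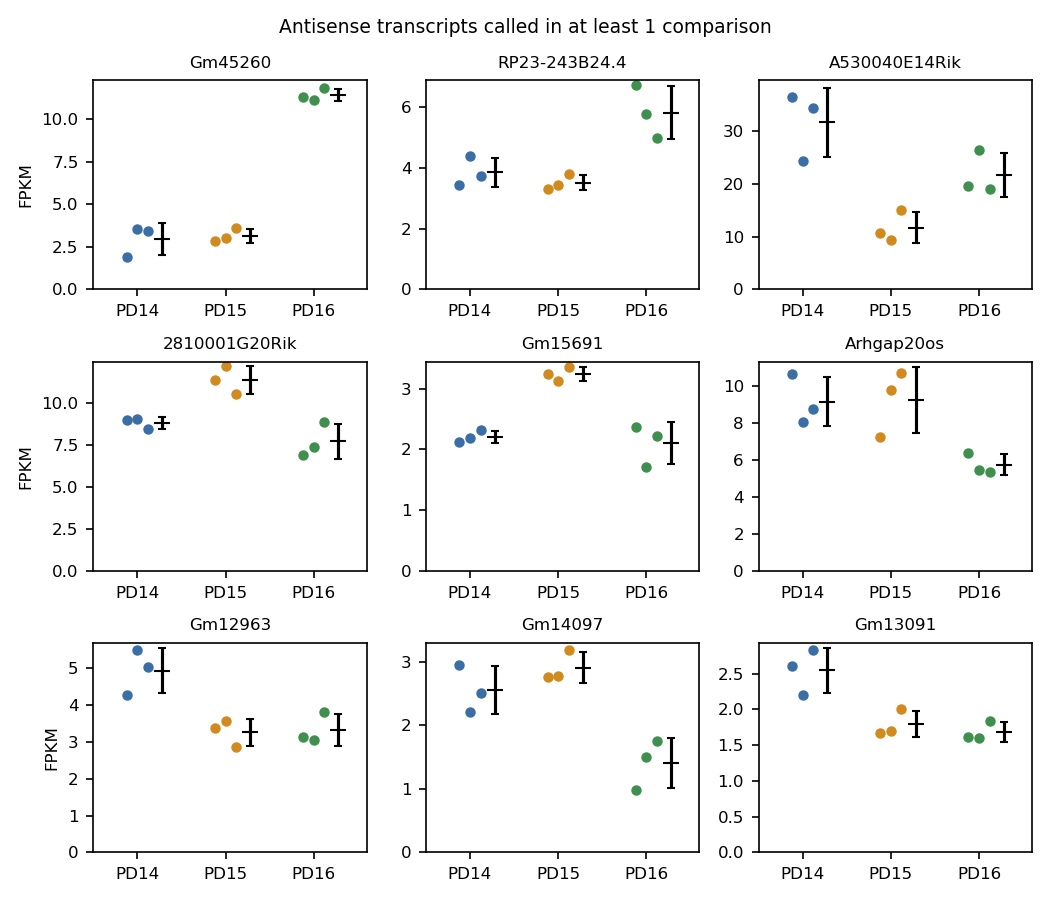
FPKM in each library (points, 3 per day) of the 9 antisense transcripts that passed the limma test in at least 1 comparison, with the mean and SD of each day beside them (black). Gm45260 and RP23-243B24.4 are highest at PD16, A530040E14Rik is lowest at PD15, 2810001G20Rik and Gm15691 have all PD15 libraries above the other days, and the other 4 are lower at PD16 than at PD14.

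The partners on the opposite strand were counted in the same fit. Of 102 partner genes, 84 were tested. Between PD14 and PD15 none was called by limma, with 9 below 0.05 unadjusted, where 0.678% of all genes were called and 14.7% had an unadjusted p under 0.05. Between PD14 and PD16, 3 were called, Bcat1 and Spsb1 upward and Vsig10 downward, where 4.25% of all genes were called. Between PD15 and PD16, 1 was called, Bcat1, where 0.729% of all genes were. Zbtb11 is not among the 84, since Zbtb11os1 overlaps it in part but lies wholly within the span of Gm28037, which at 0 FPKM was taken as its partner. Zbtb11 enters the pairs of overlapping genes and rose by 0.32 for PD16 against PD14 (adjusted p = 0.0259), a call lost without any PD14 or any PD16 replicate (adjusted p of up to 0.0955). Spsb1 was called with any library left out. Bcat1 for PD16 against PD14 was lost without PD14 replicate 3 or PD16 replicate 1, and Vsig10 without any PD14 replicate or PD16 replicate 1 or 2. Bcat1 for PD16 against PD15 was kept in 3 of 9 such fits. Bcat1, an aminotransferase of branched-chain amino acids, was read at 11.7, 9.01 and 8.96 FPKM at PD14, 11.1, 10.9 and 10.3 at PD15, and 18.8, 17.7 and 15.0 at PD16, and rose by 0.74 ± 0.11 for PD16 against PD14 (adjusted p = 0.0126). Its antisense transcript Gm15687 had a log2 change of -0.07 (adjusted p = 0.863). Spsb1, an adaptor of a ubiquitin ligase, rose by 0.86 ± 0.11 (adjusted p = 0.01), with 31.0 ± 2.56 FPKM (SD, n = 3) at PD14 and 57.5 ± 8.48 at PD16, beside 0.56 for Gm13070. Vsig10, a membrane protein with immunoglobulin domains, fell with a log2 change of -0.41 ± 0.07 (adjusted p = 0.0224), beside -0.41 for Gm10399 (adjusted p = 0.220). No transcript called in a comparison had a partner called in it.

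The direction of a transcript was set beside that of its partner. Over 91 pairs of a transcript with an overlapping tested gene, the signs of the log2 changes were the same in 48 for PD15 against PD14, where 56.3% of all 1640 such pairs of tested genes had the same sign. For PD16 against PD14 it was 51, where 57.3% of all pairs did, and for PD16 against PD15 it was 49, where 55.2% did. The ratio of transcript to partner was called in none of the 91 pairs for PD15 against PD14 by limma, with 8 at an unadjusted p under 0.05 and 0 of all 1640 pairs called. For PD16 against PD14 it was called in 2, Gm45260 to Ptprd and Gm14097 to 1110034G24Rik, where 2.44% of all pairs were called. Since Gm14097 passed the level rule through PD14 and PD15, this count is not read against that share. At an unadjusted p under 0.05 there were 14 for PD16 against PD14 and 17 for PD16 against PD15. No share of all pairs at that p is given, so nothing is read from these counts. For PD16 against PD15 the ratio was called in 1, Gm45260 to Ptprd, where 0.122% of all pairs were called. The F test over the 3 days called 1, where it called 0.244% of all pairs.

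**Figure D5:**
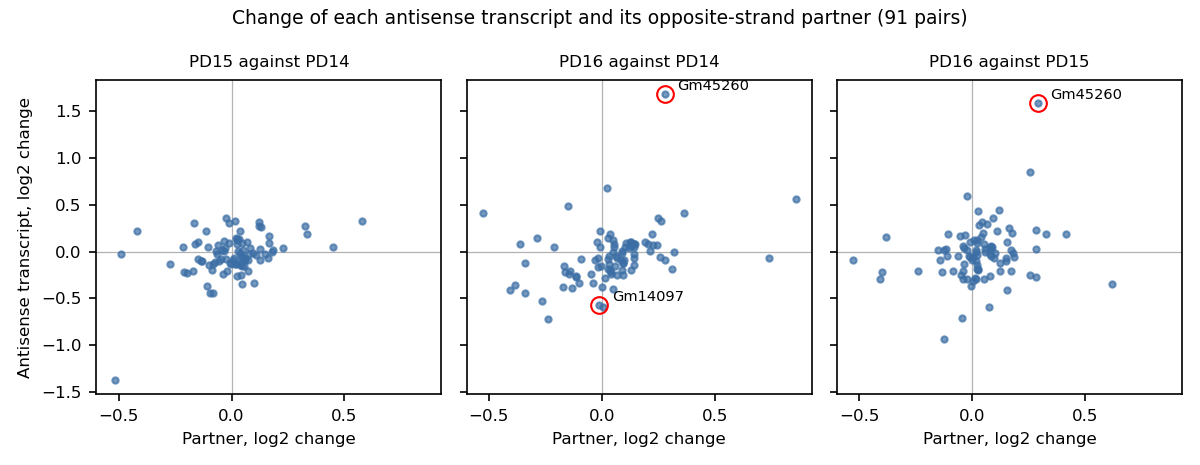
Log2 change of each antisense transcript (vertical) against that of its opposite-strand partner (horizontal) for each pair of days, with 1 point per pair (91 pairs) and red circles where the ratio passed the limma test. Points lie around 0 in both directions, and Gm45260 rises at PD16 with a partner that changes by 0.28.

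By position, counts of calls were small, and 4.25% of all genes tested were called for PD16 against PD14. The 63 transcripts that share exon bases with the partner had 1 rise and 2 falls for PD16 against PD14 and a median log2 change of -0.05. The 33 with overlapping spans only had 1 rise and 1 fall and a median of -0.07. The falls in the groups of 63 and 33 hold Gm14097 and Gm13091, whose PD16 means were under the threshold of 2. The counts of these groups are thus not read against the share of all genes. The 7 that did not overlap, all starting near the partner's start, had 1 fall and a median of -0.07. Of the 26 transcripts with at least 20% of their exon bases in opposite exons, 0 were called by limma between any days, where 0.678%, 4.25% and 0.729% of all genes were called for PD15 against PD14, PD16 against PD14 and PD16 against PD15. At those shares a group of 26 holds few calls, and nothing is read from the 0.

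Promoter sequences in RefSeq (GRCm38) were matched by symbol for 38 of the 108 transcripts, with 42 promoters of 300 bases. Each motif was searched on both strands, and motifs were counted without regard to overlap with each other. The TATA box letters TATAAA were in 4.76% of these promoters (2 of 42) and in 13.6% of all 32851. The GC box letters GGGCGG were in 40.5% (17 of 42) against 35.7%, and CCAAT in 31.0% (13 of 42) against 37.4%. Some transcripts, such as Phf2os1, entered with promoters that overlap each other. The 42 are thus not independent, and nothing is read from these shares. Neither TGACGTCA, the letters of a cyclic AMP response element, nor TCAAGGTCA, those bound by the gonadal nuclear receptors of the NR5A family, was found in any of the 42, where 1.79% and 0.423% of all promoters held them.

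Other genes were counted in the same fit. Of 46 genes of RNA surveillance and double-stranded RNA sensing, which act on paired and non-coding RNA, 44 were tested and none was called between any days by limma, where 0.678%, 4.25% and 0.729% of all genes were called for PD15 against PD14, PD16 against PD14 and PD16 against PD15. At an unadjusted p under 0.05 there were 2, 10 and 4 of them in these comparisons, where 14.7%, 22.8% and 14.1% of all genes were. Of 48 transcription factors of gonad development, 35 were tested, and none was called between PD14 and PD15, with 9 at an unadjusted p under 0.05, where 0.678% of all genes were called and 14.7% had such a p. Between PD14 and PD16, 4 were called, where 4.25% of all genes were, 3 of them higher, where 2.36% of all genes were, and 1 lower, where 1.89% were. Among them, Foxo1, a transcription factor of growing granulosa cells, rose by 0.92 ± 0.08 (adjusted p = 0.00419) and Esr2, the estrogen receptor of granulosa cells, by 0.48 ± 0.08 (adjusted p = 0.0151). Emx2, a homeobox gene of the urogenital tract, fell with a log2 change of -0.42 ± 0.07 (adjusted p = 0.0177). Without PD16 replicate 1 the calls of Esr2 and Emx2 were lost, with adjusted p-values of 0.057 and 0.0683. Between PD15 and PD16, 1 was called higher and 1 lower, where 0.432% and 0.297% of all genes were. Foxo1 rose by 0.47 ± 0.08 (adjusted p = 0.0462) and Emx2 fell with -0.43 ± 0.07 (adjusted p = 0.0378), calls kept in 1 and 2 of the 9 fits that left out a library.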

How the data were processed

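Sequencing of the 9 ovary libraries (NEBNext Ultra RNA kit, Illumina HiSeq) and annotation were done for the authors by a sequencing company. The deposited values are FPKM per gene, 1 table per library, and the submitters' processing notes list HISAT2 2.0.5 and mm10. The counting tool and annotation are not given in the sources used here. Mapped fragments were derived from the FPKM step of 1 fragment and exon lengths in GENCODE M21, with 87 of 108 transcripts whole in all 9 libraries (tolerance 0.05).

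Values were analysed as log2(FPKM + 1), so a fold change understates that of low genes. A single limma fit held the 15495 genes whose mean exceeded 1 FPKM on any day (trend, 9 libraries, day as the term, two-sided), which was tested on simulated data. Ratios of overlapping opposite-strand genes were fitted over 1640 pairs. Near-identical copies were searched with BLAST 2.17.0 in GENCODE M21 transcripts. The fits used limma 3.58.1 in R 4.3.3. Tables and figures were made in Python 3.11.15 with pandas 2.3.3, Matplotlib 3.10.9 and NumPy 2.4.6.

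The members and lists were chosen with earlier results of these data known. Transcripts named were the 12 highest, all called, the 6 largest rises and 6 largest falls for PD16 against PD14, the 3 largest of each for PD15 against PD14, the 7 highest of those named as an opposite strand, and 3 on each side of the threshold. Gm10552, Gm15687, Gm10399, Wt1os, Gm20457, Gm13563, Gm12264, 9130221H12Rik, Gm26737, RP23-392I13.15, 4933431E20Rik, Zbtb11os1 and 1500015A07Rik were named after their values were seen. Alternatives covered pseudocounts, filters, scalings, limma settings, a replicate block and each library left out. Some items are not reported here.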

Additional observations from a re-analysis of the deposited data

How the results depend on the processing

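The level of Gm45260 was called for PD16 against PD14 and against PD15 under every alternative run for it, whereas each other call was lost under at least 1. With all genes above 0 in any library tested, the called transcripts were 0 for PD15 against PD14, 1 for PD16 against PD14, 1 for PD16 against PD15 and 1 in the F test, and with the replicate block likewise 0, 1, 1 and 1. With only the 2 days compared they were 0, 2 and 1, and without a trend 1 for PD16 against PD15. With each library left out in turn they were 0 to 2, 1 to 4, 1 to 3 and 1 to 5. Partner genes called were then 0 to 1 for PD15 against PD14, 1 to 4 for PD16 against PD14, 0 to 2 for PD16 against PD15 and 0 to 3 in the F test. Pairs with a called ratio were 1 to 3 for PD16 against PD14, 0 to 1 for PD16 against PD15 and 0 to 1 in the F test with a library left out. They were 1, 0 and 0 with the replicate block, and 1 and 0 for PD16 against PD14 and PD15 with a pseudocount of 0.1. The cause was not tested. Correlations of deviations ran from -0.21 to 0.16 between libraries of the same replicate number and from -0.20 to 0.21 between those of different numbers. The numbers thus gave no sign of a pairing, though these values do not exclude one. With a threshold of mean FPKM above 1 the summed FPKM was 676, 646 and 644 at PD14, PD15 and PD16, and above 5 it was 272, 255 and 266, which follows from the number of genes summed. For single transcripts, 331 of the recomputed values kept their direction and side of the threshold, 84 kept the direction and lost the call, 3 gained a call and none reversed. Low counts, overlap with opposite exons or introns and libraries without strand limit what can be said of single transcripts.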
